A study of Mus musculus with 4 samples.

Results

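MicroRNAs named for the blood lineages were followed in TaqMan real-time PCR of whole mouse embryos. Assays were chosen by name alone, as those for miR-142, miR-150, miR-155 and miR-223, taken as the leukocyte members, and for miR-144, miR-451 and miR-486, taken as the erythroid members. In the files used here 7 assays met this rule, 5 leukocyte and 2 erythroid, of 375 microRNA assays; miR-144 was not analysed here. Total RNA came from whole embryos of strain C57BL/6 taken at E18.5. Of the 4 samples 2 were wild-type, and the other 2 lacked ER-alpha (the genotype ER-alpha KO), the estrogen receptor encoded by Esr1. The labels name neither the knockout allele nor any treatment or sex, nor whether single embryos or pools were extracted. The p-values therefore measure only the spread between these samples, which may be technical. No assay reads Esr1 mRNA, so the genotype labels could not be checked here.

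MicroRNAs are short RNAs that guide Argonaute proteins to messenger RNAs, mostly through pairing of the seed at their 5′ end, and so lower the output of those messengers. Several are concentrated in blood: miR-142 is made in almost all haematopoietic cells, miR-223 marks neutrophils and monocytes, miR-150 mature lymphocytes, and miR-155 is raised in activated lymphocytes and macrophages. On the erythroid side, miR-144 and miR-451 are transcribed together under GATA1 as red cells mature, and miR-486 lies with the erythrocyte ankyrin gene Ank1, although skeletal and heart muscle express it too. Late in gestation the liver is still a blood-forming organ, so a whole embryo holds blood, liver, vessels and marrow in 1 extract. In such bulk RNA, fewer cells of a type and less RNA per cell cannot be told apart.

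RefSeq (build GRCm38.p6) gave a mature sequence for 5 of the 7 assays; mmu-miR-150 and mmu-miR-486 are named only. An assay name without an arm was taken as the strand that now carries the same microRNA, for example mmu-miR-155-5p for mmu-miR-155 and mmu-miR-451a for mmu-miR-451. The sequences are shown because the seed, bases 2 to 8, in capitals, decides whether members could share targets.

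mmu-miR-142-3p: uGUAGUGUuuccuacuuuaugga
mmu-miR-142-5p: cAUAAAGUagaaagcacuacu
mmu-miR-155: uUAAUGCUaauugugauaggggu
mmu-miR-223: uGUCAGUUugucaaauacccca
mmu-miR-451: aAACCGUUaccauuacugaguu

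The 5 seeds are all different, and none recurs in another of the 1679 mature names of the table, so no pair of these members shares a seed. Both arms of miR-142 come from 1 hairpin, miR-142-3p from chr11:87756903-87756925 and miR-142-5p from chr11:87756867-87756887. The others come from separate loci, miR-155 from chr16:84714143-84714165, miR-223 from chrX:96242884-96242905 and miR-451 from chr11:78073186-78073207, all on the plus strand. The hairpin genes of miR-155 and miR-223 lie inside the long noncoding RNA genes Mir155hg and F630028O10Rik, and Mir486 on chromosome 8 overlaps the protein-coding gene Ank1. Mir144 ends 99 bases before Mir451a begins. A record on the opposite strand, Mir142b or Mir451b, overlaps each of Mir142 and Mir451a.

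The hairpins of Mir142 and Mir451a show how differently the members are made. In the following lines the mature RNAs are in capitals.

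Mir142: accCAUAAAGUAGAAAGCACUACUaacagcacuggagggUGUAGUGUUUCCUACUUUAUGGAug
Mir451a: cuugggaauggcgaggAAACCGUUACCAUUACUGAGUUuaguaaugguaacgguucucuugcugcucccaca

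Mir142 carries 1 mature RNA on each arm of its 64 bases, at positions 4 to 24 and 40 to 62, and both were assayed. In Mir451a a single mature RNA runs from base 17 to 38 of 72, up one arm and around the loop; this precursor is cut by Argonaute 2 and not by Dicer.

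Each well gave a threshold cycle (Ct), the PCR cycle at which the signal crosses a fixed line, so an earlier Ct stands for more RNA, by about 1 log2 unit for each cycle. All 7 members were detected in all 4 samples at a Ct of 35 or lower, the limit used here, as were 229 of the 375 microRNAs. Between 254 and 290 microRNAs were detected per sample. Endothelial mmu-miR-126-3p (Ct 20.2 to 21.2), muscle mmu-miR-133a (19.96 to 21.3), liver mmu-miR-122 (24.8 to 27.2) and neural mmu-miR-9 (23.4 to 24.2) were detected in every sample, as the label of a whole embryo implies.

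Wild-type replicate 1 stood apart before any comparison was made. Its correlation with the other samples was 0.939 to 0.954 over the 229 assays, against 0.978 to 0.989 among the others, given as a description. Once a constant of 0.273 in that file was taken off, 90.0% of its amplified wells other than U6 lay within 0.1 cycle of a whole cycle, against 21.0% to 26.5% elsewhere. All 7 members were among them, so differences between members in that sample lay within 0.053 of a whole number of cycles. Fold changes and medians in the scaling described next, and the within-sample differences singled out, are therefore also given without it. Counts of groups without overlap, and values under other scalings, are over all 4 samples.

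In each sample levels were set against the median Ct of the 229 shared microRNAs, and the level is minus that difference, in log2 units. The leukocyte members covered the widest span. For mmu-miR-223, the myeloid member, the wild-type embryos read Ct 25.2 (replicate 1) and 22.9 (replicate 2), and the knockout embryos 23.1 in both. Values of a genotype are given in this order, replicate 1 before replicate 2, throughout. It was the earliest blood-cell assay in every sample, and ranked 15th or 16th of 229 by level in all 4.

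Its relative level was 4.02 and 4.50 in the wild-type samples and 5.10 and 4.68 in the knockout samples. Both knockout samples lay above both wild-type samples. The log2 fold change was 0.63 (SE 0.64), or 1.55-fold. Leaving out wild-type replicate 1 gave 0.06, and quantile normalization gave -0.08.

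The lymphocyte member mmu-miR-150 gave Ct values of 29.2 and 26.4 in the wild-type and 27.0 and 26.7 in the knockout embryos. Its levels were -0.01 and 0.94 in the wild-type and 1.17 and 1.15 in the knockout samples, so that wild-type replicate 1 was low and the other 3 samples spanned 0.23 log2 units. The groups did not overlap, and the log2 fold change was 0.69 (SE 0.64), or -0.11 without wild-type replicate 1.

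For mmu-miR-155, the member induced in activated lymphocytes and macrophages, Ct values were 31.2 and 28.5 in the wild-type and 28.6 and 28.7 in the knockout embryos. Levels were -1.97 and -1.15 in the wild-type and -0.40 and -0.89 in the knockout samples, again without overlap. This was the largest of the 7 fold changes in the fit to all samples, 0.91 on the log2 scale (SE 0.64), or 1.88-fold; leaving out wild-type replicate 1 gave 0.17.

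The arms of miR-142, the microRNA of nearly all blood cells, were read far apart. The 3p arm, mmu-miR-142-3p, gave Ct values of 29.2 and 27.0 in the wild-type and 27.5 and 27.5 in the knockout embryos, with levels of 0.003, 0.38, 0.71 and 0.34 in the same order of samples. The groups overlapped, and the log2 fold change was 0.33 (SE 0.64), or -0.19 without wild-type replicate 1.

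The 5p arm, mmu-miR-142-5p, amplified late, at Ct 34.2 and 32.7 in the wild-type and 33.1 and 34.4 in the knockout embryos, near the limit of 35, where a single well is least certain. Its levels were -5.01 and -5.39 in the wild-type and -4.93 and -6.58 in the knockout samples. ER-alpha knockout replicate 2 was the lowest and the groups overlapped. The log2 fold change of -0.56 (SE 0.64) was the only one below 0; it was -0.70 without wild-type replicate 1, 0.19 without ER-alpha knockout replicate 2 and 0.08 with quantile normalization.

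Of the erythroid members, mmu-miR-486 gave Ct values of 28.3 and 24.9 in the wild-type and 25.9 and 25.3 in the knockout embryos. Its levels were 0.98 and 2.51 in the wild-type and 2.32 and 2.51 in the knockout samples. Wild-type replicate 1 was far below the other 3, which lay within 0.19 log2 units of each other. It ranked 98th of 229 in that sample and 52nd to 65th in the others. The log2 fold change was 0.67 (SE 0.64), and -0.43 without wild-type replicate 1.

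The red-cell member mmu-miR-451 gave Ct values of 31.2 and 28.4 in the wild-type and 29.2 and 29.0 in the knockout embryos. Its levels were -2.01 and -1.001 in the wild-type and -0.97 and -1.19 in the knockout samples, with wild-type replicate 1 low and the other 3 within 0.22 log2 units. The log2 fold change was 0.42 (SE 0.64), and -0.41 without wild-type replicate 1.

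**Figure D1:**
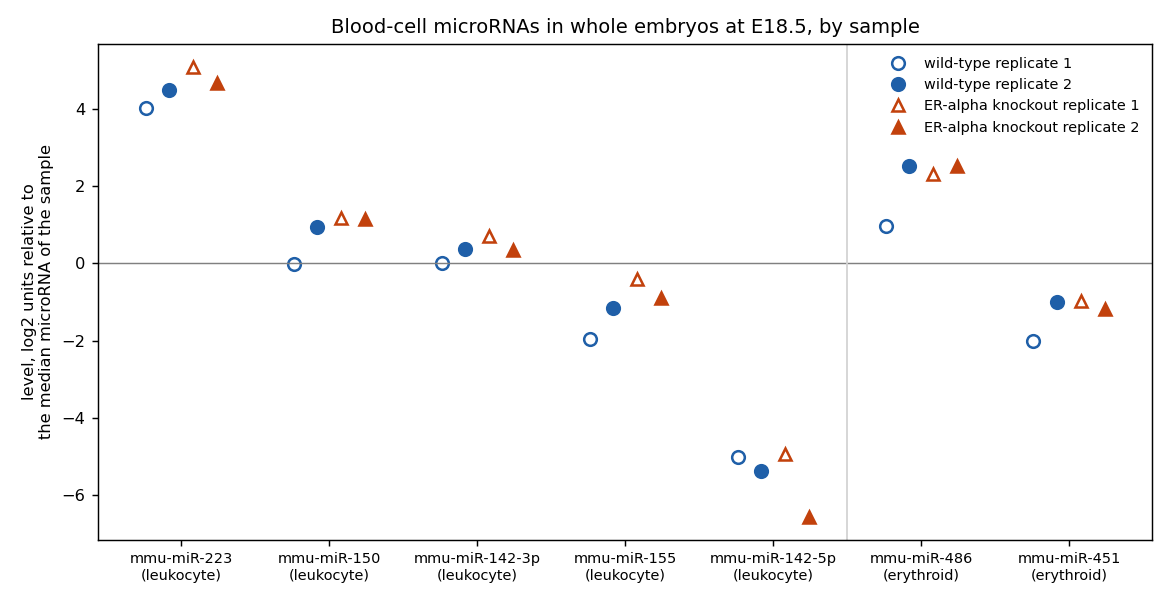
Level of each blood-cell microRNA (log2 units relative to the median microRNA of the sample) in each of the 4 samples; circles are wild-type, triangles ER-alpha knockout, open symbols replicate 1 and filled symbols replicate 2. Wild-type replicate 1 is the lowest sample for 6 of the 7 assays, while ER-alpha knockout replicate 2 is the lowest for mmu-miR-142-5p.

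By mean Ct the members ran from mmu-miR-223 (23.6) through mmu-miR-486 (26.1), mmu-miR-150 (27.3), mmu-miR-142-3p (27.8), mmu-miR-155 (29.3) and mmu-miR-451 (29.4) to mmu-miR-142-5p (33.6). The efficiency of each assay is unknown, so this is an order of readings and not of molecules. The relative levels were compared by their spans over the 4 samples. That of mmu-miR-223 lay above those of all other members and that of mmu-miR-142-5p below them. Between them, the spans of mmu-miR-486 and mmu-miR-150 overlapped, as did those of mmu-miR-150 and mmu-miR-142-3p and those of mmu-miR-155 and mmu-miR-451, while mmu-miR-142-3p lay above mmu-miR-155.

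The comparison of genotypes asked whether loss of ER-alpha was accompanied by other levels of the blood-cell microRNAs. Measured levels in knockout embryos were 1.26 to 1.88 times those of wild-type for 6 members, mmu-miR-155 the furthest, and 0.68 times for mmu-miR-142-5p. None of the 7 passed an adjusted p of 0.05 by limma, and 0 of all 229 did (0.0%); each member had an adjusted p = 0.939. Without adjustment 0 of 7 had a p under 0.05, against 4.37% of all assays, and the smallest was that of mmu-miR-155 (limma unadjusted p = 0.152). The 95% interval of its log2 fold change ran from -0.34 to 2.16 and that of mmu-miR-451 from -0.83 to 1.67, so rises and falls both lay within what these samples allow. A shared standard error of 0.64 applied to all assays, since limma estimated 1 common variance.

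Counted without a test, 6 of 7 members had a log2 fold change above 0, as did 68.1% of all assays. Both knockout samples lay above both wild-type samples for 3 of 7, mmu-miR-150, mmu-miR-155 and mmu-miR-223, all leukocyte members, against 33.2% of all assays. Both lay below for 0 of 7, against 6.11%. The share of members without overlap was therefore close to that of all assays.

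The median log2 fold change was 0.63 over the 7 members and 0.26 over all 229. It was 0.63 for the leukocyte and 0.55 for the erythroid members. Without wild-type replicate 1 the medians were -0.19 for the members, -0.11 for the leukocyte, -0.42 for the erythroid and -0.03 for all 241 assays then shared. Only mmu-miR-155 and mmu-miR-223 then stayed above 0. Without wild-type replicate 2 the median of the members was 1.04, against 0.33 over all 235 assays, and 5 of 7 had a limma unadjusted p under 0.05, as did 68 of the 235; the smallest adjusted p of a member was 0.135. In both cases the lone wild-type sample was assumed to vary like the knockout samples.

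**Figure D2:**
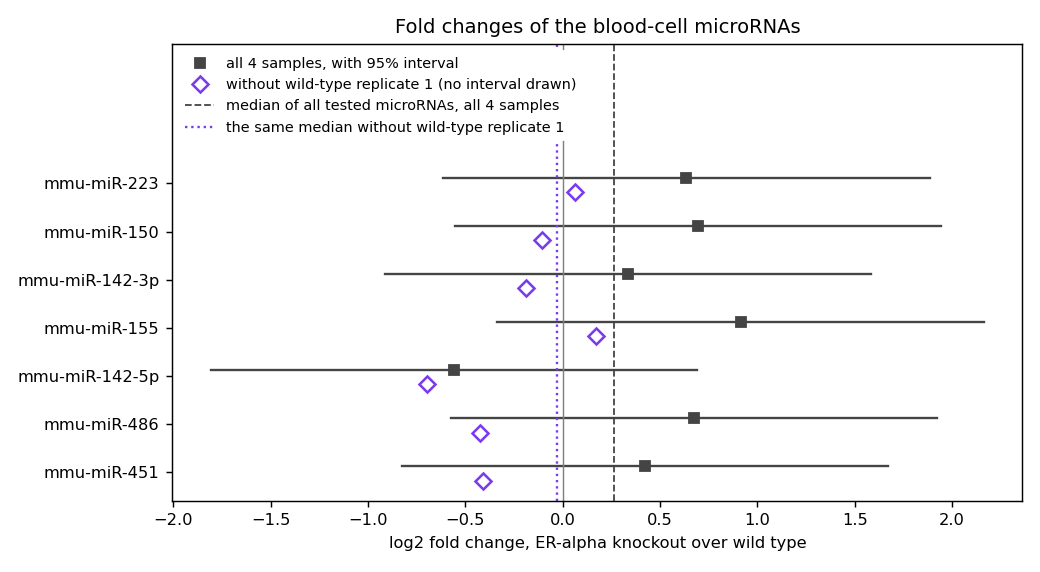
Log2 fold change of ER-alpha knockout over wild type for each member: squares with lines are the fit to all 4 samples with its 95% interval, and diamonds the values without wild-type replicate 1. All 7 intervals include 0, and the erythroid members move from 0.67 and 0.42 to -0.43 and -0.41 when that sample is left out.

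The dependence on 1 sample was itself measured. The level was lowest in wild-type replicate 1 for 6 of 7 members, against 38.4% of all assays, the exception being mmu-miR-142-5p. Set against the mean of the other 3 samples, wild-type replicate 1 stood at -1.47 log2 units for mmu-miR-486, -1.16 for mmu-miR-155, -1.09 for mmu-miR-150, -0.95 for mmu-miR-451, -0.74 for mmu-miR-223 and -0.48 for mmu-miR-142-3p. It stood at 0.62 for mmu-miR-142-5p, and at a median of -0.16 over all 229 assays. For mmu-miR-486 only 3.06% of assays were lower still. The part of whole-cycle readings, of RNA quality and of blood content in this sample was not tested.

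Among the other 3 samples 5 of the 7 members had a range below the median of all assays, which was not matched for Ct. The range over wild-type replicate 2 and both knockout samples was 0.19 for mmu-miR-486, 0.22 for mmu-miR-451, 0.23 for mmu-miR-150, 0.37 for mmu-miR-142-3p and 0.60 for mmu-miR-223, below the median of 0.66 over all assays. It was 0.75 for mmu-miR-155 and 1.65 for mmu-miR-142-5p, the latest member by Ct. A smaller range than that of mmu-miR-486 was found for 5.24% of assays, than that of mmu-miR-451 for 7.86% and than that of mmu-miR-142-5p for 95.6%.

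**Figure D3:**
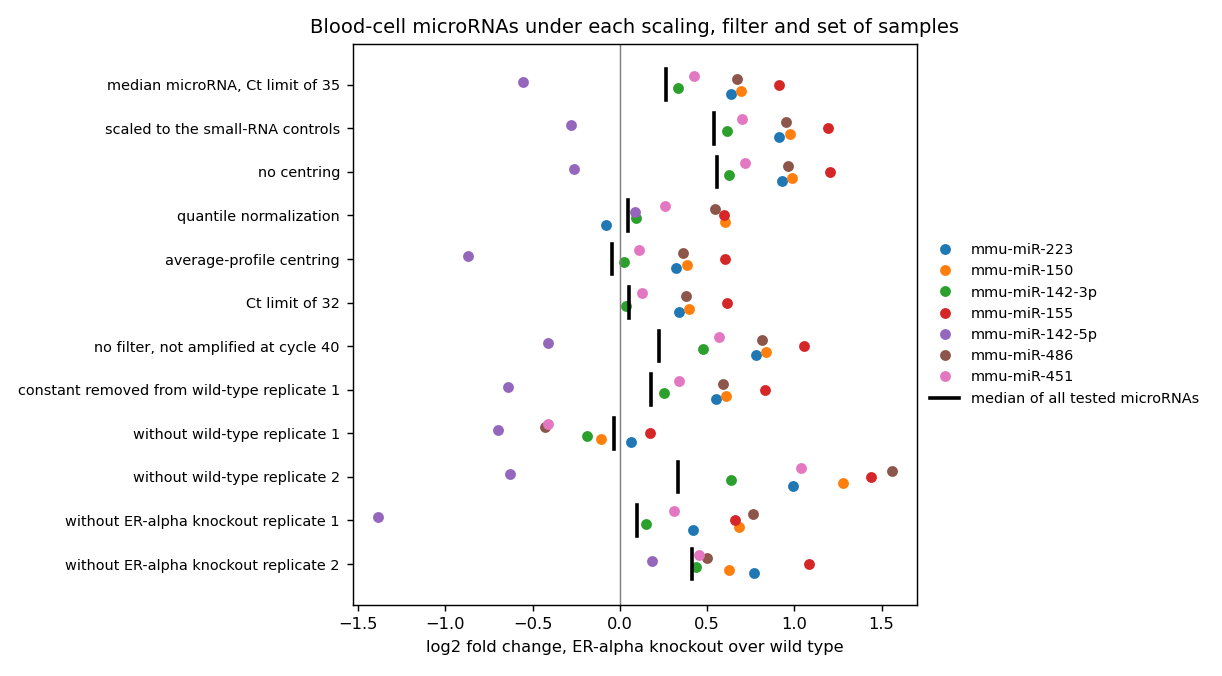
Log2 fold change of ER-alpha knockout over wild type (horizontal axis) for each member (coloured points) under each scaling, detection limit and set of samples (rows); black bars are the median of all tested microRNAs. The members lie on both sides of 0 without wild-type replicate 1, and 6 of 7 lie above 0 in each row that keeps all samples and tests 7 members.

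Differences of Ct between members inside 1 sample need no scaling, and were used to set erythroid against leukocyte members. The mean erythroid level minus the median leukocyte level was -0.51 and 0.37 log2 units for wild-type replicates 1 and 2, against -0.03 and 0.32 for the knockout samples. That median is the level of a single middle assay, mmu-miR-150 in wild-type replicate 1 and mmu-miR-142-3p in the other samples. The wild-type samples were the lowest and the highest, with both knockout samples between them. The wild-type mean was -0.07 ± 0.62 and the knockout mean 0.14 ± 0.25 (SD, n = 2 each). The knockout mean was higher by 0.21, and lower without wild-type replicate 1 (difference -0.23); leaving out any other sample gave 0.03 to 0.65. Being a score over chosen members, it was not tested.

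Within the erythroid side, the Ct of mmu-miR-451 minus that of mmu-miR-486 was 2.98 and 3.52 in the wild-type and 3.29 and 3.71 in the knockout embryos, with the groups interleaved and a range of 0.72 cycles, or 0.41 without wild-type replicate 1. Relative to the leukocyte median, mmu-miR-451 stood at -2.001 and -1.38 log2 units in the wild-type and -1.68 and -1.54 in the knockout samples. For mmu-miR-486 these values were 0.98 and 2.13 in the wild-type and 1.61 and 2.17 in the knockout samples. For both, wild-type replicate 1 was the lowest sample and the genotypes overlapped.

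Among the 21 pairs of members, the smallest range over all 4 samples was that of mmu-miR-142-3p with mmu-miR-223. Their Ct differed by 4.01 and 4.12 cycles in the wild-type and 4.39 and 4.34 in the knockout embryos, a range of 0.38. Next was mmu-miR-150 with mmu-miR-451, with a range of 0.41. Without wild-type replicate 1 these ranges were 0.28 and 0.41, and the smallest was that of mmu-miR-155 with mmu-miR-223 (0.15). The 15 pairs without mmu-miR-142-5p had ranges of at most 1.20 cycles and a median of 0.63, and the 6 pairs with it a median of 2.52; without that sample the medians were 0.42 and 1.44.

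In 7 of the 21 pairs the Ct difference did not overlap between genotypes, against 34.4% of all 26106 pairs of the 229 assays; pairs share assays and are not independent. Of these 7, 4 held mmu-miR-155. Against mmu-miR-142-3p it came up later by 1.97 and 1.53 cycles in wild-type and by 1.11 and 1.24 in knockout embryos, a change of 0.58 cycles, or 0.36 without wild-type replicate 1. Against mmu-miR-223 it was later by 5.99 and 5.65 cycles in the wild-type and 5.50 and 5.58 in the knockout samples, and against mmu-miR-451 the difference was -0.04 and 0.15 in the wild-type and -0.57 and -0.30 in the knockout samples. Knockout minus wild type was -0.28 and -0.49 cycles for these pairs, and -0.11 and -0.58 without wild-type replicate 1. All of these pairs were picked after their values were seen, and the share of member pairs without overlap was near that of all pairs.

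**Figure D4:**
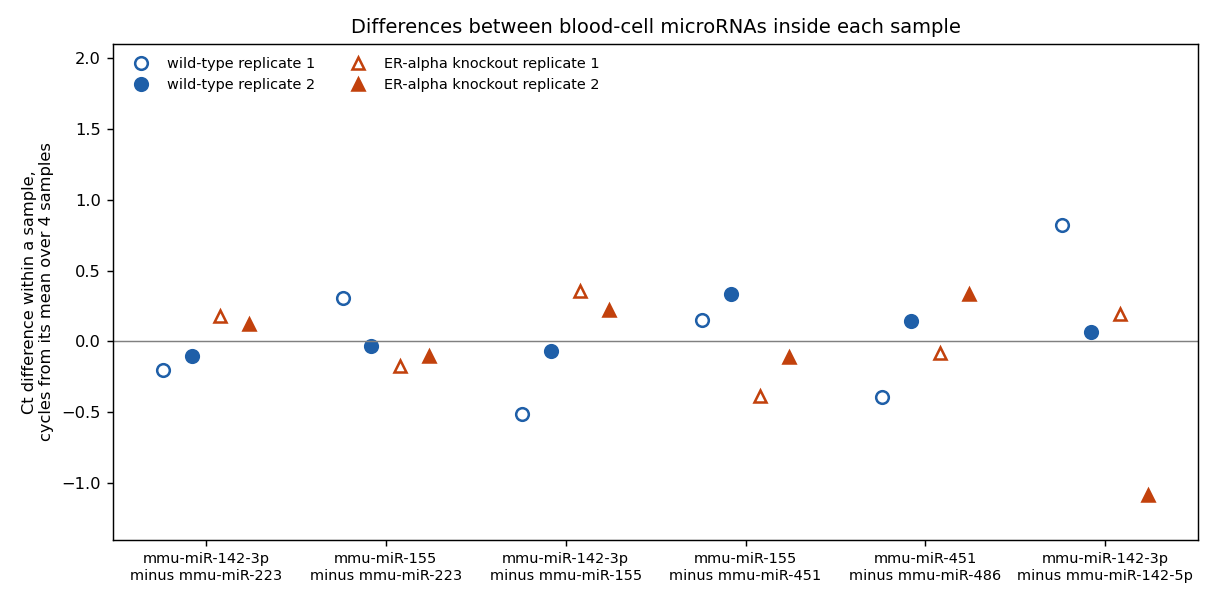
Ct difference between 2 blood-cell microRNAs in the same sample, in cycles from its mean over the 4 samples, for 6 pairs; symbols as circles for wild-type and triangles for ER-alpha knockout, open for replicate 1 and filled for replicate 2. The 3p and 5p arms of miR-142 spread over 1.91 cycles, and the pair of mmu-miR-142-3p with mmu-miR-223 over 0.38.

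The arms of miR-142, released from the hairpin shown above, were compared directly. The 5p arm came up later than the 3p arm by 5.01 and 5.77 cycles in wild-type and by 5.64 and 6.92 in knockout embryos. Means were 5.39 ± 0.54 in wild-type and 6.28 ± 0.91 in knockout (SD, n = 2 each), 0.89 cycles apart. The difference was 0.51 without wild-type replicate 1, and ran from 0.25 without ER-alpha knockout replicate 2 to 1.53 without ER-alpha knockout replicate 1. With 2 against 2 samples a two-sided exact permutation test cannot go below 0.333, so it could not pass 0.05 (p = 0.667), and nothing is read from it. The groups overlapped, and the gap itself sets 2 assays of unknown efficiency side by side.

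Other microRNAs linked to blood were read from 3 lists chosen with earlier results of these data known. Over all 229 assays, 68.1% had a log2 fold change above 0 and the median was 0.26. Without wild-type replicate 1, 113 of 241 were above 0 and the median was -0.03. Red-cell and erythroid linked microRNAs (miR-15a, miR-15b, miR-16, miR-24, miR-221, miR-222, miR-363, miR-25 and miR-92a) had 8 of 9 assays tested, of which 0 passed limma's adjusted threshold, 6 had a log2 fold change above 0 and the median was 0.69. The largest were mmu-miR-222 (0.77), mmu-miR-16 (0.74), which is abundant in red cells, and mmu-miR-15b (0.73). Below 0 were mmu-miR-221 (-0.38) and mmu-miR-15a (-0.30), which stood at -0.60 and -0.04 without wild-type replicate 1. Leaving out wild-type replicate 1 gave a median of -0.11, with 2 of 8 above 0. In that fit mmu-miR-222 stood at -0.0043, mmu-miR-16 at 0.52 and mmu-miR-15b at -0.33.

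Lymphoid and myeloid linked microRNAs, with an assay for 8 of the 10 names listed, had 7 tested assays, 0 past the adjusted threshold, 4 above 0 and a median of 0.23. The largest were mmu-miR-181c (-1.69), mmu-miR-181a (-1.16), of a family that tunes T-cell receptor signalling, and mmu-miR-146b (0.82), of a family that damps NF-kB signalling. Without wild-type replicate 1 they stood at -0.70, -0.79 and 0.40, and the list had 3 of 7 above 0 and a median of -0.01. Stem and progenitor linked microRNAs had 7 tested assays, 0 past the threshold, 3 above 0 and a median of -0.0009. Their largest were mmu-miR-196b (0.99), mmu-miR-126-5p (0.62) and mmu-miR-99a (-0.44), or 0.91, 0.12 and -0.17 without that sample. The other arm of miR-126, mmu-miR-126-3p, named above as endothelial, stood at 0.24 with all samples and 0.31 without wild-type replicate 1. In whole-embryo RNA these readings cannot be assigned to blood progenitors. Without that sample 3 of 7 on this list were above 0 and the median was -0.14.

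The assays whose course over the 4 samples was most like that of the members were found by the root mean square difference of levels, each taken from its own mean. Nearest to the erythroid mean were mmu-miR-375 (0.04), an endocrine microRNA, mmu-miR-139-5p (0.06) and mmu-miR-335-3p (0.09), against a median of 0.57 over all others. Nearest to the leukocyte mean were mmu-miR-340-5p (0.04), mmu-miR-29c (0.07) and muscle mmu-miR-1 (0.08), against 0.39. Both lineage means were themselves lowest in wild-type replicate 1. That this sample was the lowest in all 6 assays therefore follows from how they were chosen. For example, mmu-miR-375 had levels of -1.99 and -0.80 in the wild-type and -0.85 and -0.81 in the knockout embryos.

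The size of the fold changes depended on the scaling. Set against the mean of the 5 small-RNA controls, the median of the members was 0.91 and that of all assays 0.54, with mmu-miR-155 at 1.19, mmu-miR-486 at 0.95 and mmu-miR-451 at 0.70. The controls themselves ranged, in Ct of knockout minus wild-type, from 0.58 for Y1 to -0.28 for snoRNA202, a nucleolar RNA. These means hide differences within a genotype. U87, at 0.14 by this measure, read Ct 26.3 and 27.8 in the wild-type and 26.1 and 28.3 in the knockout samples. Under each scaling that kept all samples 6 of 7 members stood above the median of all assays. The member below it was mmu-miR-223 with quantile normalization and mmu-miR-142-5p otherwise. All scalings but quantile normalization take a single constant off each sample, which shifts every fold change equally. Among those scalings the count of 6 of 7 was therefore fixed in advance. By definition 114 of the 229 assays stood above the median of all assays in the main scaling. These scalings reuse the same 4 samples, and without wild-type replicate 1 only 2 of 7 members stood above the median of all assays. Control scaling was not repeated without that sample.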

How the data were processed

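TaqMan real-time PCR values of 4 whole-embryo samples were used, 2 per genotype. The deposited files hold threshold cycles (Ct), per the file headers, from an Applied Biosystems 7900HT over 40 cycles, per the labels' protocols; threshold, baseline and any normalization by the authors are not given in the sources used here. Undetermined wells, and 39 wells of wild-type replicate 1 above cycle 40, were treated as not amplified. The 4 U6 wells were averaged. Python 3.11.15, pandas 2.3.3 and matplotlib 3.10.9 were used for reading and plotting.

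Levels of the 229 microRNAs detected in every sample were fitted by genotype in R 4.3.3 with limma 3.58.1 (moderated variances, two-sided), and p-values were adjusted over all 229 by Benjamini-Hochberg. The exact permutation test enumerated all splits of 2 against 2. Simulated data with independent noise and no outlying sample served only to check that the fit returns known fold changes. They do not show how the fit behaves with a sample like wild-type replicate 1. PCR gives no read counts, so the number of samples limits the precision.

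Members and lists were chosen with earlier results of these data known. Named are all members, the 3 nearest profiles to each lineage mean, and up to 3 assays per list with the largest fold change. Alternatives were 4 other scalings, a Ct limit of 32, no filter, each sample left out, the replicate block, 2 other variance models and removal of the constant. Same-numbered samples deviated together (r = 0.37 over assays), but 2 pairs without a stated meaning were not treated as paired.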

Additional observations from a re-analysis of the deposited data

How the results depend on the processing

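The count of microRNAs past the adjusted p of 0.05 was 0 under every alternative but the replicate block, which gave 1, not a blood-cell microRNA; no member passed under any alternative. The median log2 fold change of the members, 0.63, was 0.91 with control scaling, 0.93 without centring, 0.26 with quantile normalization, 0.32 with average-profile centring and 0.36 with a Ct limit of 32, where 6 members were tested. Leaving out 1 sample gave -0.19 to 1.04. Of 69 member values under alternatives that kept all samples 2 reversed, both with quantile normalization: mmu-miR-142-5p to 0.084 and mmu-miR-223 to -0.079. The replicate block and the 2 other variance models cannot change a fold change. Their values are among the 69, so this count does not measure how stable the signs are. With 1 sample left out 5 of 28 reversed: the ranges were -0.19 to 0.64 for mmu-miR-142-3p, -1.38 to 0.19 for mmu-miR-142-5p, -0.11 to 1.28 for mmu-miR-150, -0.41 to 1.04 for mmu-miR-451 and -0.43 to 1.56 for mmu-miR-486. Sign changes came from leaving out ER-alpha knockout replicate 2 for mmu-miR-142-5p and wild-type replicate 1 for the others. The causes were not tested. With the replicate block, fold changes and within-sample differences were identical by design (0.21 for erythroid against leukocyte, 0.89 for the miR-142 arms). All 7 members were detected under a limit of 40 cycles as well, and 6 under a Ct of 32. Late Ct limits mmu-miR-142-5p most.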
